A study of Mus musculus with 10 samples.

Results

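The antigen processing and MHC (major histocompatibility complex) genes described here are 10 genes chosen by symbol: H2-K1, H2-D1, B2m, Tap1, Tap2, Tapbp, Psmb8, Psmb9, Cd74 and H2-Aa. All 10 were found among the 24736 gene symbols of the mRNA table, and all 10 passed the low-count filter that left 18988 genes for testing. The tissue was the whole eyeball, taken from outbred Kunming females whose labelled age was 4 weeks. In the blue-light group, 3 libraries (blue A, B and C) came from mice exposed to an 18 W blue lamp inside a dark container. In the natural-light group, 2 libraries (control A and B) came from mice exposed to natural light. The titles carry day 14. Separate animals per library are not stated in the labels, and p-values therefore measure the spread among these samples alone, part of which may be technical.

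Nearly all nucleated cells show peptides from their own proteins on MHC class I molecules, each made of a heavy chain (H2-K1 or H2-D1) and the light chain beta-2-microglobulin (B2m). The peptides are cut by the proteasome, whose inducible subunits include Psmb8 and Psmb9, carried into the endoplasmic reticulum by the Tap1-Tap2 transporter, and loaded with the help of tapasin (Tapbp). Class II molecules, such as the one that contains the H2-Aa chain, are made mainly by professional antigen-presenting cells and carry peptides of ingested proteins, with the invariant chain Cd74 as their escort. The healthy inner eye is known for low MHC expression, and interferons are known inducers of both pathways.

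Levels are given as CPM, TMM-normalised estimated counts scaled per 1e+06. A log2 fold change (log2FC) sets blue light over natural light, and its standard error (SE) restates the edgeR test. The test was the quasi-likelihood F-test of edgeR, its p-values adjusted by Benjamini-Hochberg over all 18988 genes and called at 0.05. Library totals ran from 87071487 to 107660103 estimated counts, and the lowest estimated count of any of the 10 genes in any library was 194. The tissue label held: the lens crystallin Cryaa ran from 9866 to 11262 CPM in blue libraries and from 10256 to 11561 CPM in controls. The ribosomal RNA precursor Rn45s, a mark of how well ribosomal RNA was removed, took 10.8%, 8.69% and 14.4% of the counts of blue A, B and C, and 4.30% and 14.1% of those of control A and B. Eyeball RNA averages many cell types, so more cells of a type and more RNA per cell cannot be told apart.

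None of the 10 genes passed the threshold in edgeR, while 2.22% of all tested genes passed, 0.664% as higher and 1.55% as lower under blue light. One gene, H2-K1, had an unadjusted p under 0.05, which is 1 of 10 against 7.03% of all tested genes in that direction, 9.27% in the other and 16.3% in either. DESeq2 called 1 of the 10 higher and 0 lower, against 4.43% and 4.61% of its tested genes. With limma-voom 0 of the 10 were higher and 0 lower, against 0.69% and 1.72%. All 10 had a positive log2FC, as did 49% of all tested genes. Their median log2FC was 0.60, beside -0.0056 over all tested genes. The 2 controls lay far apart: control B exceeded control A for each of the 10 genes, by 1.30-fold (Tapbp) to 2.90-fold (Cd74), whereas control B was the higher for 50% of all tested genes. For 8 of the 10 genes this gap between controls was larger on the log2 scale than the blue-light log2FC.

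**Figure D1:**
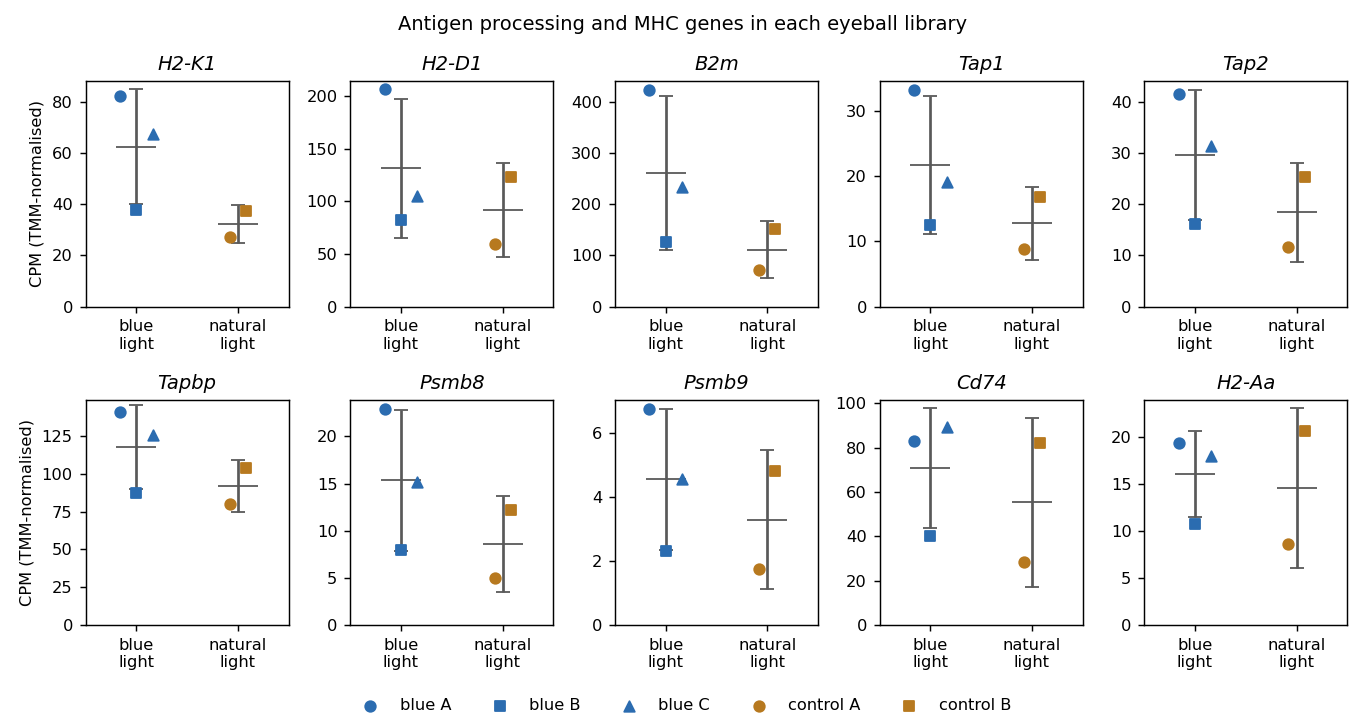
TMM-normalised CPM (vertical axes, from 0) of each gene in the 3 blue-light libraries (left) and the 2 natural-light libraries (right), with the group mean and SD as grey bars. Control A is the lowest library in all 10 panels, and blue B lies between the controls in every panel but that of H2-K1.

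H2-K1 encodes a classical class I heavy chain and lies on chromosome 17 from 33996012 to 34000619 (GRCm38, the assembly called mm10). Its level was 82.4, 38.0 and 67.7 CPM in blue A, B and C, against 27.1 and 37.5 CPM in control A and B. Every blue library was thus above both controls, but blue B only by 1.01-fold over control B. The means were 62.7 ± 22.6 CPM in blue libraries and 32.3 ± 7.33 CPM in controls (SD, n = 3 and 2), a log2FC of 0.96 (SE 0.34, unadjusted p = 0.0315, adjusted p = 0.246 in edgeR). H2-K1 was the 1 gene of the 10 whose groups did not overlap, as for 15.6% of all tested genes with blue higher, and for none of the 10 was blue the lower group without overlap, as it was for 20.1%. DESeq2 gave it an adjusted p of 0.0277 and limma-voom one of 0.286.

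H2-D1, the other classical heavy chain, lies on chromosome 17 from 35263094 to 35267497. It stood at 206, 82.4 and 105 CPM in blue A, B and C, against 59.7 and 123 CPM in control A and B. Only blue A exceeded control B, and the groups overlapped. The log2FC was 0.52 (SE 0.47, adjusted p = 0.659 in edgeR), and without blue A it was 0.06.

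The light chain gene B2m, on chromosome 2 from 122147687 to 122153082, had the largest log2FC of the 10, at 1.23 (SE 0.57, adjusted p = 0.363 in edgeR). Its level was 423, 126 and 234 CPM in blue A, B and C, against 71.5 and 152 CPM in control A and B. Blue A and blue C were above both controls, and blue B was between them. The highest library exceeded the lowest by 5.92-fold, the widest range among the 10 genes. The annotated span of Patl2 covers B2m, but Patl2 stayed at or under 0.173 CPM in every library.

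The start regions of the class I genes are shown because these genes varied together across libraries and because heavy and light chains are known targets of NF-kB and interferon-regulated factors. The windows run from 250 bases before to 50 bases after the annotated start (RefSeq, GRCm38.p6), 5′ to 3′ on the gene's strand: H2-K1 at chr17:34000298-34000597 (minus strand, 1 of 2 annotated starts), H2-D1 at chr17:35262844-35263143, B2m at chr2:122147437-122147736 and Tap1 at chr17:34187306-34187605 (plus strand). Capitals mark matches on either strand to GGGGATTCC (a kappa B sequence), to GAANNGAAA or GAAANNGAAA (letters of the interferon-response type) and to ATTGG (the CCAAT box, read as ATTGG or CCAAT).
H2-K1: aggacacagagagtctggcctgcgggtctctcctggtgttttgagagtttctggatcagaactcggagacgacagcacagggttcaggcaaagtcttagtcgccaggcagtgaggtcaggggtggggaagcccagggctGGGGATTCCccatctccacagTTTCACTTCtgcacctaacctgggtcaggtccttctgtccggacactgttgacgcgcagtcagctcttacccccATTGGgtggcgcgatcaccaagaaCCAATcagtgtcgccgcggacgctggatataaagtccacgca
H2-D1: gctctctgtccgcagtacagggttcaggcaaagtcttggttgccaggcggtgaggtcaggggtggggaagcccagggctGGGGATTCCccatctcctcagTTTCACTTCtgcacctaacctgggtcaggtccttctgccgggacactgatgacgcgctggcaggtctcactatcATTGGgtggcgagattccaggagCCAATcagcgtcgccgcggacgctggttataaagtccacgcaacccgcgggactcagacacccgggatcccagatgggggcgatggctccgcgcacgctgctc
B2m: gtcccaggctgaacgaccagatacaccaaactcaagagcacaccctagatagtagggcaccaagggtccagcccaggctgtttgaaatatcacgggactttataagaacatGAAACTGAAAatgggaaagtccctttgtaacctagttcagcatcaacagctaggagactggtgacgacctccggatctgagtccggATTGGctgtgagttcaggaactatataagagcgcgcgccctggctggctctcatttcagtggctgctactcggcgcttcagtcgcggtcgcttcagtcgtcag
Tap1: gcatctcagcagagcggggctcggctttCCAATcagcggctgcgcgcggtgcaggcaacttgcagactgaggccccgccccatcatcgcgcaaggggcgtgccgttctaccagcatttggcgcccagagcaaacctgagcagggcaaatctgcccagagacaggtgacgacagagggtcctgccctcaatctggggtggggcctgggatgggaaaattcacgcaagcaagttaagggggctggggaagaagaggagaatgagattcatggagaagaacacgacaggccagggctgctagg

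H2-K1 and H2-D1 each held 1 GGGGATTCC, present in 0.25% of 32851 such windows, and 1 GAANNGAAA, read on the minus strand as TTTCACTTC and present in 7.52% of windows. In H2-K1 these began 111 and 90 bases before the start, and in H2-D1 171 and 150 bases before it. B2m held 1 GAAANNGAAA, as GAAACTGAAA, beginning 139 bases before the start, which 3.44% of windows hold. Tap1 held none of these 3 and 1 CCAAT box, a sequence in 37.4% of windows. TTCNNNGAA, a sequence of the gamma-activated site type (in 8.3% of windows), was found in Psmb8 alone among the 8 genes with a window read here. The motif letters were chosen with the class I promoters in view, and a match describes the letters only.

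Class I heavy chains are near-identical and highly polymorphic, and the labels give no MHC haplotype for these mice, so estimated counts may be shared out among them. Summed over the 31 heavy-chain symbols in the table (6 of them at 0 in every library), the level was 533, 205 and 308 CPM in blue A, B and C, against 145 and 243 CPM in control A and B. Blue A and blue C were again above both controls and blue B between them, with a log2FC of 0.85 (SE 0.43, adjusted p = 0.412 in edgeR). It was 0.42 without blue A and 1.26 without control B. Of 20 tested heavy chains other than H2-K1 and H2-D1, 17 had a positive log2FC, with a median of 1.19. In edgeR 0 of these passed, with 7 higher and 1 lower at an unadjusted p under 0.05, 3 higher in DESeq2 and 0 in limma-voom. For this list and those below, the shares over all tested genes are those given above. They are 7.03% higher and 9.27% lower at an unadjusted p under 0.05 in edgeR, and 4.43% called higher in DESeq2.

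Among 22 class I-like genes on the list kept for comparison, 20 were tested, and by smallest p they were led by H2-T10, H2-T3, H2-Q4 and H2-Q2. H2-Q4, a non-classical heavy chain, stood at 62.2, 15.2 and 23.8 CPM in blue A, B and C, against 7.45 and 11.1 CPM in control A and B (log2FC 1.86, SE 0.63, adjusted p = 0.230 in edgeR). H2-T10 stood at 6.58, 2.46 and 3.79 CPM in the blue libraries, against 1.14 and 1.84 CPM in the controls (log2FC 1.52, adjusted p = 0.204 in edgeR). Both genes had groups that did not overlap. Over the 20 tested, blue was higher without overlap for 7, against 15.6% of all tested genes, and lower for 1 (H2-Q2), against 20.1%. H2-T3 stood at 0.386, 0.335 and 0.0220 CPM in blue A, B and C and was listed at 0 in both controls.

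For 4 genes of the MHC region some libraries were at or near 0. H2-Q2 is named above by its p, and the others were chosen after their values were seen. Gm11127, a class I-like gene on chromosome 17 (36055816 to 36058371), stood at 8.31, 0.270 and 8.66 CPM in blue A, B and C, against 0.359 and 6.17 CPM in control A and B. Gm7030 on chromosome 17 (36127609 to 36129425) stood at 1.45, 0 and 0.868 CPM in the blue libraries, against 0.0359 and 1.09 CPM in the controls. Both were thus near 0 in blue B and control A, the 2 lowest libraries for 9 of the 10 genes (all but H2-K1). H2-Q2 was at 0, 0.130 and 0 CPM in blue A, B and C, against 0.216 and 2.18 CPM in control A and B. Blue was thus the lower group without overlap (log2FC -4.69, SE 1.63, adjusted p = 0.238 in edgeR). The class II pseudogene symbol H2-Ea-ps was at 5.99, 4.66 and 13.0 CPM in the blue libraries, against 0 and 6.06 CPM in the controls. As background, mice of the reference genome's haplotype do not transcribe this gene because its promoter is deleted, whereas some other haplotypes do. The part of haplotype in the results for the 10 genes was not tested.

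Both subunits of the peptide transporter gave the same order of libraries. Tap1, on chromosome 17 from 34187556 to 34197225, stood at 33.3, 12.6 and 19.1 CPM in blue A, B and C, against 8.84 and 16.8 CPM in control A and B. Its log2FC was 0.76 (SE 0.47, adjusted p = 0.491 in edgeR). Tap2, on chromosome 17 from 34204479 to 34216321, stood at 41.4, 16.1 and 31.3 CPM in blue A, B and C, against 11.6 and 25.3 CPM in control A and B. Its log2FC was 0.69 (SE 0.48, adjusted p = 0.553 in edgeR). For both genes blue A and blue C exceeded control B and blue B did not.

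Tapasin (Tapbp), which holds class I molecules at the transporter, lies on chromosome 17 from 33919478 to 33929290 and varied least of the 10 genes. It stood at 141, 87.1 and 125 CPM in blue A, B and C, against 80.0 and 104 CPM in control A and B. The groups overlapped, and the log2FC was 0.36 (SE 0.23, adjusted p = 0.507 in edgeR). Its highest library exceeded its lowest by 1.76-fold.

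Of 8 further class I loading partners, 7 had a positive log2FC, with a median of 0.19. Groups did not overlap, with blue higher, for 5 of the 8, against 15.6% of all tested genes. In edgeR 0 passed, with 3 at an unadjusted p under 0.05, 1 called in DESeq2 and 0 in limma-voom. Erap1, the aminopeptidase that trims peptides for class I, stood at 57.3, 42.6 and 55.1 CPM in blue A, B and C, against 28.7 and 31.8 CPM in control A and B. All 3 blue libraries were above both controls (log2FC 0.77, SE 0.15, adjusted p = 0.0698 in edgeR). The endoplasmic reticulum chaperones Hspa5 (log2FC 0.24), Pdia3 (0.25) and Canx (0.15) had adjusted p-values of 0.248, 0.258 and 0.355.

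Psmb8 and Psmb9 replace catalytic subunits of the standard proteasome and form part of the immunoproteasome. Psmb8, on chromosome 17 from 34198195 to 34201454, stood at 22.9, 7.99 and 15.2 CPM in blue A, B and C, against 5.02 and 12.2 CPM in control A and B (log2FC 0.84, SE 0.54, adjusted p = 0.515 in edgeR). Psmb9, on chromosome 17 from 34182030 to 34187330, stood at 6.74, 2.32 and 4.55 CPM in the blue libraries, against 1.74 and 4.81 CPM in the controls (log2FC 0.47, SE 0.58, adjusted p = 0.757 in edgeR). Control B exceeded blue C for Psmb9 and not for Psmb8. Psmb9 and Tap1 are transcribed away from each other across a gap of 225 bases, and 275 bases of their start windows coincide, so the Tap1 window printed above also covers most of that of Psmb9. Across the 5 libraries Psmb8 ranged 4.57-fold, Psmb9 3.87-fold and Tap1 3.77-fold.

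As a sum, the standard proteasome varied less. The 14 constitutive subunits summed to 499, 467 and 471 CPM in blue A, B and C, against 444 and 501 CPM in control A and B. Their median log2FC was 0.02, with 0 passing in edgeR, 0 at an unadjusted p under 0.05 and 0 in DESeq2 or limma-voom. Among 5 proteasome activator and inducible genes the median log2FC was 0.27, again with 0 in each of these counts. Psmb10, the third inducible catalytic subunit, stood at 8.32, 6.62 and 9.34 CPM in blue A, B and C, against 5.61 and 6.19 CPM in control A and B. Its groups did not overlap (log2FC 0.46, SE 0.19, adjusted p = 0.310 in edgeR). The activator subunit Psme1 had a log2FC of 0.53 (adjusted p = 0.383 in edgeR).

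The class II genes differed little between the groups relative to the spread of their libraries. Cd74, the invariant chain on chromosome 18 from 60803849 to 60812652, stood at 83.2, 40.0 and 89.3 CPM in blue A, B and C, against 28.4 and 82.4 CPM in control A and B. Its log2FC was 0.36 (SE 0.53, adjusted p = 0.801 in edgeR). H2-Aa, the alpha chain of the class II molecule I-A on chromosome 17 from 34282744 to 34287823, stood at 19.4, 10.8 and 18.0 CPM in blue A, B and C, against 8.62 and 20.7 CPM in control A and B. Control B was its highest library, and the log2FC was 0.13 (SE 0.42, adjusted p = 0.920 in edgeR). For both genes blue A, blue C and control B were close together, with blue B and control A below them.

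Of 19 class II partners on the comparison list 17 were in the table and tested. Their median log2FC was 0.18, with 0 passing in edgeR, 4 at an unadjusted p under 0.05 (all higher), 3 called higher in DESeq2 and 1 in limma-voom. The 4 were not MHC chains. Ctss, the cathepsin that cleaves the invariant chain, stood at 93.6, 56.1 and 68.3 CPM in blue A, B and C, against 12.6 and 25.3 CPM in control A and B (log2FC 1.94, SE 0.36, adjusted p = 0.0649 in edgeR). Lgmn, an asparaginyl protease of lysosomes, had a log2FC of 0.41 (adjusted p = 0.105), the co-stimulatory molecule Cd86 one of 0.91 (adjusted p = 0.156) and the lysosomal thiol reductase Ifi30 one of 0.54 (adjusted p = 0.220). All 4 had groups that did not overlap, which a choice by smallest p favours. Over the 17 tested partners, blue was higher without overlap for 6, against 15.6% of all tested genes, and lower for 0, against 20.1%. By contrast H2-Ab1, the beta chain that pairs with H2-Aa, had a log2FC of -0.03, and H2-Eb1 stood at 20.2, 9.45 and 27.2 CPM in blue A, B and C, against 8.15 and 23.6 CPM in control A and B, the library pattern of Cd74.

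Transcription regulators of the MHC were on a list of 15 genes, with a median log2FC of 0.10. In edgeR 0 passed, with 3 higher and 2 lower at an unadjusted p under 0.05, 3 higher in DESeq2 and 0 in limma-voom. Nlrc5, the class I transactivator, stood at 47.6, 16.7 and 31.3 CPM in blue A, B and C, against 11.7 and 15.3 CPM in control A and B (log2FC 1.24, SE 0.43, adjusted p = 0.240 in edgeR). Irf8, a factor of myeloid cells, had a log2FC of 0.90 (adjusted p = 0.130). Both had groups that did not overlap. Over the 15 regulators, blue was higher without overlap for 4, against 15.6% of all tested genes, and lower for 3, against 20.1%. Ciita, the class II transactivator, stood at 6.79, 5.52 and 8.60 CPM in blue A, B and C, against 6.41 and 6.90 CPM in control A and B (log2FC 0.07, adjusted p = 0.922 in edgeR). The NF-Y subunits Nfyb and Nfyc, which bind CCAAT boxes, had log2FCs of -0.22 and -0.20 (adjusted p = 0.306 and 0.304) and were among the 3 with blue lower without overlap.

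Interferon gamma itself (Ifng) was listed at 0 in all libraries but control A, where it stood at 0.0629 CPM, and it was not tested. Of the 7 tested genes of its receptor path, 1 had an unadjusted p under 0.05, 1 was called in DESeq2, and 0 passed in edgeR or limma-voom. The receptor chain Ifngr2 had a log2FC of 0.27 (adjusted p = 0.312), the feedback inhibitor Socs1 one of 0.71 (adjusted p = 0.384) and the receptor kinase Jak2 one of 0.16 (adjusted p = 0.389). Among 13 tested genes listed as induced by interferon gamma the median log2FC was 1.29, with 0 passing in edgeR, 7 higher at an unadjusted p under 0.05, 2 called in DESeq2 and 0 in limma-voom. The 4 of smallest p were the guanylate-binding proteins Gbp4, Gbp7, Gbp3 and Gbp6, with log2FCs of 1.29, 1.51, 2.09 and 1.91. Among 19 genes listed for type I interferon the median was 1.74, with 0 passing in edgeR, 15 higher at an unadjusted p under 0.05, 10 called in DESeq2 and 0 in limma-voom. The 4 of smallest p in that list were Usp18, Irf9, Mx2 and Ifit1, with log2FCs between 1.43 (Irf9) and 2.78 (Mx2). Over all tested genes, 7.03% were higher at an unadjusted p under 0.05 in edgeR and 4.43% were called higher in DESeq2.

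**Figure D2:**
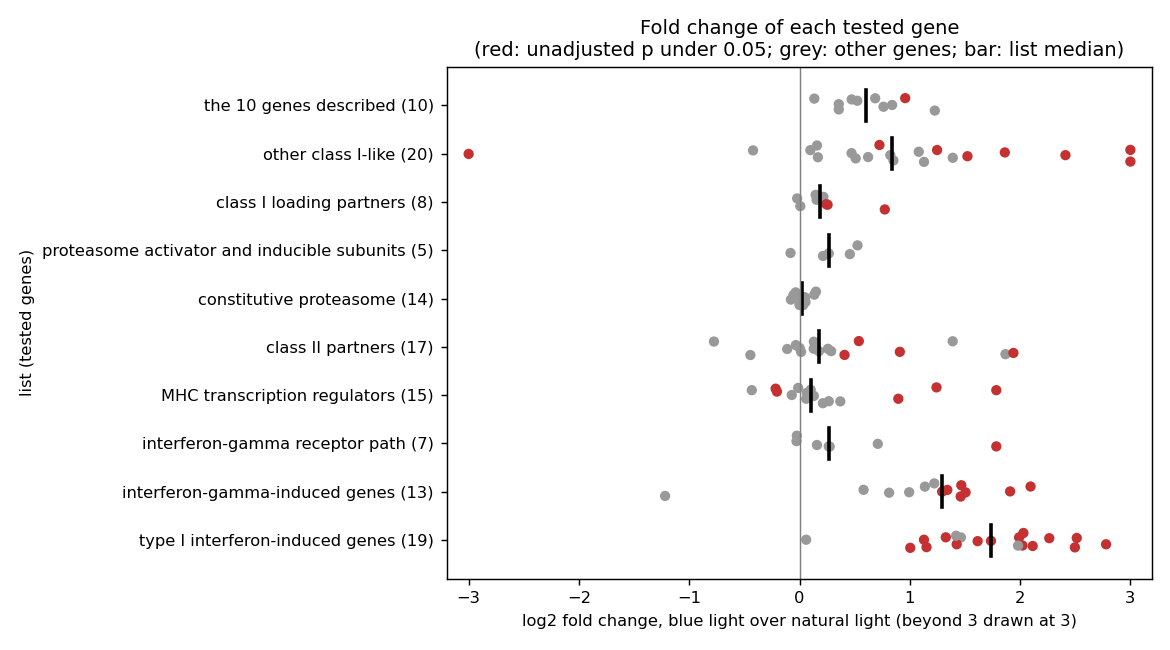
Log2 fold change of blue over natural light (horizontal axis) for each tested gene of the 10 described and of the comparison lists (rows), with red points for an unadjusted p under 0.05 black bars for list medians and values beyond 3 drawn at 3. The 10 genes have a median of 0.60, the 14 constitutive proteasome genes one of 0.02 and the 19 type I interferon genes one of 1.74.

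Across libraries the 10 genes shared part of an order that cut across the groups, while the full order differed between genes. Control A was the lowest library for all 10, against 23.8% of all tested genes, and blue A the highest for 8 of 10, against 24.4%. That order was not particular to them. Among the 19 type I interferon genes control A was the lowest for 18 and blue A the highest for 19. For 15 microglia and macrophage markers the counts were 13 and 15. Blue B lay between the controls, below control B, for 9 of the 10 genes described, against 16.5%. Blue A was above both controls for 9 of 10 (37.7% of all tested genes) and blue C for 7 of 10 (32.9%). The 10 genes share libraries and a pathway, so their counts are not independent of each other. Summed over the 8 class I pathway genes, the level was 957, 372 and 603 CPM in blue A, B and C, against 265 and 475 CPM in control A and B. Summed over Cd74 and H2-Aa, it was 103, 50.8 and 107 CPM in the blue libraries, against 37.0 and 103 CPM in the controls.

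Within-library ratios showed how the genes kept together. The ratio of B2m to the summed heavy chains was 0.793, 0.615 and 0.760 in blue A, B and C, against 0.491 and 0.625 in control A and B, and the groups overlapped. The ratio of Cd74 to H2-Aa was 4.29, 3.70 and 4.97 in the blue libraries, against 3.30 and 3.99 in the controls, also with overlap. Both ratios moved less across libraries than the genes themselves. H2-K1 over H2-D1 was 0.400, 0.461 and 0.643 in blue A, B and C, against 0.453 and 0.305 in control A and B. These ratios compare libraries and not the abundance of the genes, since the counts are not per length.

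Profiles were compared by the root-mean-square distance between log2 CPM values, each centred on its mean over the 5 libraries. Nearest to the mean profile of the 8 class I pathway genes were Spi1, a transcription factor of myeloid cells (distance 0.048), Slfn5 (0.061), the B-cell survival cytokine Tnfsf13b (0.071), the slow-muscle troponin Tnnt1 (0.094) and Ifi207 (0.098), out of 5782 candidates. Spi1 stood at 3.76, 1.63 and 2.59 CPM in blue A, B and C, against 1.06 and 2.16 CPM in control A and B. Nearest to the class II pair were Stac (0.043), Kcnk7 (0.083), 2810459M11Rik (0.11), Snora69 (0.11) and Cacng1 (0.12), out of 6179 candidates. With 5 libraries and many genes some near profiles are found for any pattern, and nothing about function follows from them.

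Markers of other cells were read beside the 10 genes. The 15 microglia and macrophage genes, 14 of them with a positive log2FC and none at 0 in every library, summed to 428, 296 and 308 CPM in blue A, B and C, against 186 and 231 CPM in control A and B. The summed levels of the groups did not overlap, and 11 of the 15 genes had blue higher without overlap, against 15.6% of all tested genes. In edgeR 1 of the 15 passed, against 0.664% of all tested genes, and 10 had an unadjusted p under 0.05, against 7.03%. DESeq2 called 9 higher, against 4.43%, and limma-voom 1, against 0.69%. The 8 dendritic cell genes summed to 20.8, 17.5 and 16.9 CPM in the blue libraries, against 13.0 and 13.2 CPM in the controls, and 1 (Siglech, also found on microglia) passed. Of the 8, 5 had a positive log2FC, with a list median of 0.26. Blue was higher without overlap for 2 (Itgax and Siglech), against 15.6% of all tested genes, and lower for 1 (Ccr7), against 20.1%. Zbtb46 and Clec9a had log2FCs of -0.03 and -0.02. The 7 T cell genes summed to 4.48, 2.65 and 4.34 CPM in blue A, B and C, against 2.03 and 4.61 CPM in control A and B. The sum had the library order of H2-Aa, but its genes differed. Of the 5 tested, 1 (Lck) had a positive log2FC, and the list median was -0.23. Lck was higher under blue light without overlap (log2FC 1.31, adjusted p = 0.238 in edgeR). Cd3d was at 0 in blue B and both controls, and Cd8b1 at 0 in blue B. The 5 B cell genes summed to between 1.05 and 1.89 CPM in blue libraries and between 1.16 and 2.27 CPM in controls. For the 5 NK cell genes the sums were between 0.829 and 1.45 CPM and between 0.746 and 1.41 CPM. For the 7 neutrophil genes they were between 1.70 and 15.8 CPM and between 3.35 and 6.56 CPM. Most of the neutrophil sum was Ltf, at 15.0, 3.47 and 1.05 CPM in blue A, B and C, against 5.32 and 2.61 CPM in control A and B. Of the 3 neutrophil genes tested, 2 had a positive log2FC. S100a9 was lower under blue light without overlap (log2FC -1.90, adjusted p = 0.206 in edgeR).

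Retinal and structural markers also differed. All 6 rod genes fell under blue light in edgeR, and likewise in DESeq2 and limma-voom, with a median log2FC of -1.87. Of the 6 Muller glia genes, 2 rose and 0 fell in edgeR, 3 rose and 1 fell in DESeq2, and 2 rose and 1 fell in limma-voom. Glul was lower under blue light without overlap (log2FC -0.48, adjusted p = 0.0537 in edgeR). The list summed to 3133, 2918 and 3023 CPM in blue A, B and C, against 2591 and 2719 CPM in control A and B. The 6 skeletal muscle genes summed to 730, 408 and 424 CPM in blue A, B and C, against 399 and 691 CPM in control A and B, so blue A and control B were high. The 6 keratins of the ocular surface summed to 5151, 4462 and 3952 CPM in the blue libraries, against 3705 and 4657 CPM in the controls. Krt5 and Krt12 made up most of that sum. Blue A was the highest library for 5 of the 6 keratins (all but Krt12), against 24.4% of all tested genes. Krt15, for example, stood at 394, 90.1 and 91.3 CPM in blue A, B and C, against 128 and 219 CPM in control A and B. The 6 adipocyte genes summed to 7.44, 2.62 and 7.04 CPM in blue A, B and C, against 2.28 and 2.90 CPM in control A and B. Cidec and Lep were at 0 in both controls and Lep also in blue B, and 1 gene (Cfd) passed in edgeR (log2FC 2.55, adjusted p = 0.0468). Of the 6 adipocyte genes, 5 had a positive log2FC. Retn was lower under blue light without overlap (log2FC -0.59, adjusted p = 0.414 in edgeR). The 8 endothelial genes summed to between 471 and 498 CPM in blue libraries and between 363 and 388 CPM in controls, with 0 passing in edgeR, 1 (Kdr) at an unadjusted p under 0.05, 1 in DESeq2 and 1 in limma-voom. Most of each sum was Kdr, at 287, 264 and 286 CPM in blue A, B and C, against 211 and 195 CPM in control A and B. The list median log2FC was 0.14. Blue was higher without overlap for 2 of the 8, against 15.6% of all tested genes. The part of these cells and tissues in the levels of the 10 genes was not tested.

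**Figure D3:**
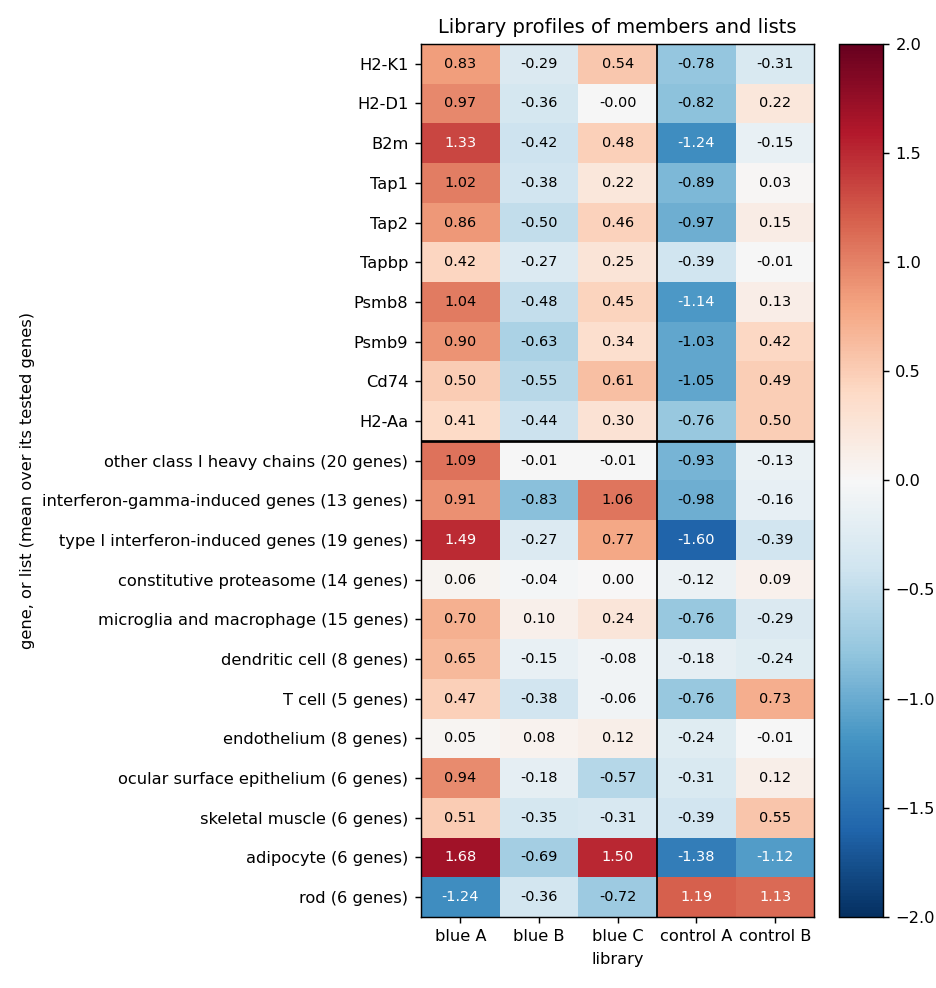
Log2 CPM minus the mean of the 5 libraries (colour and printed value) for the 10 genes (top) and for the mean of each comparison list (bottom), with blue libraries left and controls right. Control A is blue-coloured for all 10 genes and blue A red, while the mean of the 14 constitutive proteasome genes stays between -0.12 and 0.09.

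Single libraries moved the estimates by more than the choice of scaling. Without control A the median log2FC of the 10 genes was 0.23, and without control B it was 1.31. Without blue A it was 0.29, and without blue B 0.91. Cd74 had a log2FC of -0.19 without control A and 1.32 without control B, and H2-Aa of -0.34 and 0.90. H2-K1 stayed between 0.73 and 1.24 in these 5 fits, and B2m between 0.71 and 1.87. None of the 10 genes passed in edgeR in any of the 5, where 5 of the 10 had an unadjusted p under 0.05 without blue B and 0 in each of the other 4.

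**Figure D4:**
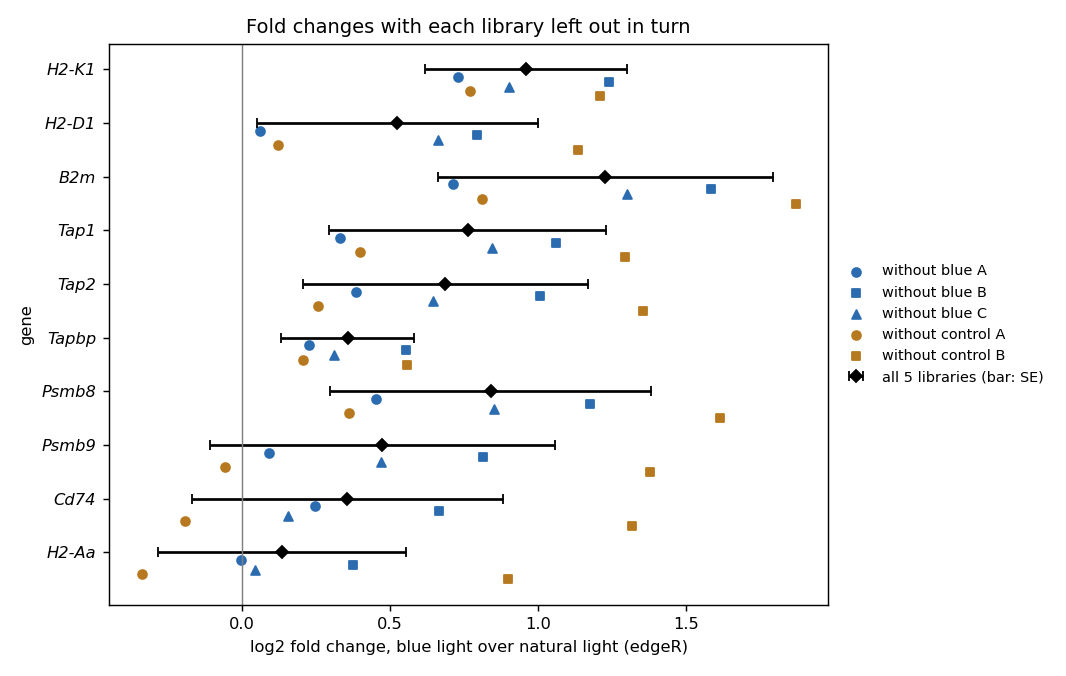
Log2 fold change of blue over natural light (horizontal axis) for each gene (rows) with all 5 libraries (black, with SE) and with each library left out in turn (coloured points, blue for a blue-light and brown for a natural-light library). Leaving out control B gives the highest value for 9 genes, and leaving out control A turns Psmb9, Cd74 and H2-Aa negative.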

How the data were processed

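RNA of eyeballs from 3 blue-light and 2 natural-light libraries was analysed. Extraction was with Trizol, followed by probe-based depletion of ribosomal RNA and random priming of fragments, per the labels' protocols. Tools listed without roles in the submitters' processing notes are StringTie, HISAT2, DESeq2, limma and bcl2fastq 2.0, and the listed build is mm10. The deposited mRNA values were taken as estimated counts per gene symbol, whole numbers not normalised by the authors. Their counter and use of strand are not given in the sources used here, so shared and overlapping genes are uncertain, and because 1 fragment may add more than 1 unit no counting intervals are given. No per-sample column was left unused, and the miRNA table was not used.

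Each column name matched 1 sample title, and groups followed the source name. edgeR 4.0.16 (R 4.3.3) used filterByExpr, TMM scaling and the 2-sided quasi-likelihood F-test over all genes. Centred log2 CPM used a prior count of 2. The pipeline was tested on simulated counts. Alternatives were 3 other scalings, 2 other filters, DESeq2 1.42.0, limma-voom (limma 3.58.1), values divided by 4, heavy chains or overlapping genes summed, the title letter as a replicate block, and each library left out in turn. A control left alone was taken to have the spread seen among blue libraries. The rule for named genes was the 10 genes, up to 4 genes of smallest p in each list, and the 5 nearest profiles. Other genes named beyond it (Canx, Ciita, H2-Ab1, H2-Eb1, Psme1, Gm11127, Gm7030, H2-Ea-ps, Ifng and the markers) were chosen after their values were seen. Some genes that the rule picked are not reported here. The genes and lists were chosen with earlier results of these data known. Start windows came from RefSeq (GRCm38.p6), and 8 of the 10 genes had one that was read.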

Additional observations from a re-analysis of the deposited data

How the results depend on the processing

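Of the values of single genes under the alternatives, 138 kept their sign and their side of the threshold, 1 gained a call (H2-K1 in DESeq2, adjusted p = 0.0277, which made 1 gene called higher) and 4 changed sign. These were Psmb9 (-0.058), Cd74 (-0.19) and H2-Aa (-0.34) without control A and H2-Aa (-0.0029) without blue A, and the cause was not tested. With 1 library left out, their highest values were 1.38, 1.32 and 0.90. With 1 library left out, the number of the 10 genes with an unadjusted p under 0.05 ran from 0 to 5 in place of 1, and their median log2FC from 0.23 to 1.31 in place of 0.60. Over all genes, calls then ran from 0 to 98 higher and from 0 to 213 lower, in place of 126 and 295. Scaled by library totals alone, 150 genes were lower and 2 of the 10 genes had an unadjusted p under 0.05. DESeq2 called 840 genes higher and 875 lower. The groups share title letters, but the labels do not say that letters pair samples, and 2 letters occur in both groups. With the letter as a replicate block in edgeR, calls were 0 higher and 0 lower and 0 of the 10 genes had an unadjusted p under 0.05. Deviations from group means correlated at -0.18 between blue A and control A and at -0.15 between blue B and control B. With 2 controls, the deviations of control A and control B are mirror images. The pairs of unlike letters therefore gave 0.18 (blue A with control B) and 0.15 (blue B with control A). These values are not separate checks and cannot decide whether letters pair samples. The log2FC of the summed heavy chains, 0.85, was 0.42 without blue A and 1.26 without control B, and its adjusted p missed the threshold under every alternative run. Psmb9 could not be tested at a mean CPM of at least 5. Each of the 10 genes had at least 194 estimated counts in every library.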
